A study of Mus musculus with 6 samples.

Results

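The genes described here are 38 genes of the cell cycle, followed through the liver cells of mice with congestive hepatopathy. They were taken by symbol from a fixed list, and 38 of 38 were present in the gene tables of all 6 libraries. Of these, 13 act before or during DNA replication (G1/S), 23 act in mitosis (G2/M), and Stmn1 and Hmgb2 are used more widely. All mice were wild-type males, 8 to 10 weeks old at surgery, with partial inferior vena cava ligation (pIVCL), which narrows the vein above the liver and congests the organ. From 2 weeks after ligation, osmotic pumps gave the pan-integrin αV inhibitor CWHM-12 at 100 mg/kg/day (3 libraries) or the vehicle, DMSO (3 libraries), and livers were taken 4 weeks later. No animal without ligation was analysed here, so every value belongs to congested livers. The labels place CWHM-12 1, DMSO 1 and DMSO 2 in batch 2024.6, and CWHM-12 2, CWHM-12 3 and DMSO 3 in batch 2024.12. In each batch 1 group thus has only 1 library, and every difference within a batch rests on that library. Livers were digested with pronase and collagenase, the suspension was brought to a set proportion of hepatocytes, and single cells were sequenced with the BD Rhapsody whole transcriptome method. The share of a cell type in a library was therefore set in part by the preparation.

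A cell that divides passes in order through G1, S, G2 and mitosis. Origin licensing factors (Cdc6 and the Mcm helicase subunits) mark where replication may start, and cyclin E with its kinase starts S phase. DNA synthesis then needs the sliding clamp Pcna and enzymes that make nucleotides (Rrm1, Rrm2, Tyms, Tk1). Cyclins A and B with Cdk1 drive entry into mitosis, kinetochore proteins attach chromosomes to the spindle, kinesins and Prc1 shape the spindle and its midzone, and the anaphase-promoting complex (activated by Cdc20, with Ube2c as its ubiquitin-conjugating enzyme) ends mitosis. In the adult liver most hepatocytes rest, while macrophages can renew themselves by division.

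Promoters of several members are shown because the module is known as 2 transcriptional waves. E2F factors act on G1/S genes, and the MuvB complex acts on G2/M genes through a short element called the cell cycle genes homology region (CHR). A RefSeq promoter (GRCm38.p6; 250 bases before to 50 bases after the start of the gene) was matched for 31 of the 38 members. The CHR letters TTTGAA, on either strand, stood in 14 of 19 G2/M promoters and in 1 of 11 G1/S promoters, against 17.9% of all 32851 promoters of that length. The letters CCAAT stood in 17 of 19 G2/M and 7 of 11 G1/S promoters, against 37.4% of all. The E2F letters TTCCCGC or TTGGCGC stood in 3 of 19 G2/M and 5 of 11 G1/S promoters, against 6.81% of all. A match describes the letters and does not show that a factor binds. The 250 bases before the start are printed 5′ to 3′ on the strand of the gene, with every match of the 3 motifs on either strand in capitals; matches of different motifs shared no bases in these 5 promoters. Top2a (chr11:99024190-99024439, minus strand), Mki67 (chr7:135716380-135716629, minus strand) and Cdc20 (chr4:118437344-118437593, minus strand) carry CHR letters with CCAAT letters, and Mcm5 (chr8:75109259-75109508, plus strand) and Mcm6 (chr1:128359706-128359955, minus strand) carry E2F letters with CCAAT letters and no CHR letters; Mki67 also holds 1 E2F match.
Top2a: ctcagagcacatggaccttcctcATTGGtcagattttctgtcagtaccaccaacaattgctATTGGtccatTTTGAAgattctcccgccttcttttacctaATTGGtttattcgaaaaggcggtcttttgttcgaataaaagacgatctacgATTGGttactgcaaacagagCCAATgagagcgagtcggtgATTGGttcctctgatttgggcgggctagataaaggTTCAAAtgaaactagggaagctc
Mki67: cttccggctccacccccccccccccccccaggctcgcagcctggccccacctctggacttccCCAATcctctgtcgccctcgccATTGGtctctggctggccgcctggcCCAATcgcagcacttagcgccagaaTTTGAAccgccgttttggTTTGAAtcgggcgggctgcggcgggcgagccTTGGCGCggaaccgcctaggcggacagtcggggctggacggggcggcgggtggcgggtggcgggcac
Cdc20: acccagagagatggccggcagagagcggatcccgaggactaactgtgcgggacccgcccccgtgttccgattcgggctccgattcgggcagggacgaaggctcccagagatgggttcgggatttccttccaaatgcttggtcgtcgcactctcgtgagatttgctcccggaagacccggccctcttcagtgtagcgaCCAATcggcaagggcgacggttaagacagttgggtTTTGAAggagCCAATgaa
Mcm5: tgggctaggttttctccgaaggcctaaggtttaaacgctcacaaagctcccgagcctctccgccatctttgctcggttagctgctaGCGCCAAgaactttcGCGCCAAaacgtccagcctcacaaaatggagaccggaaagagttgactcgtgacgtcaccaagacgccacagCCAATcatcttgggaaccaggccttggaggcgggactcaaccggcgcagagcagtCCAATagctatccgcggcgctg
Mcm6: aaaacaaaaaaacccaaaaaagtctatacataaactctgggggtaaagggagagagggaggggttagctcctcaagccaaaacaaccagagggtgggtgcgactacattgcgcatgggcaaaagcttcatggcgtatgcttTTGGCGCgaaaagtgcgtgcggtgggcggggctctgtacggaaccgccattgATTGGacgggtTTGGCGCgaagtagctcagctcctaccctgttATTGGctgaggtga

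After filtering and doublet removal 37954 cells were analysed, 3126 to 8340 per library, with median depths of 2143 to 3711 unique molecules (UMIs) per cell. Clusters were built without the members and without other listed cell cycle genes, and were named from marker genes. This was meant to group dividing cells by lineage, and whether all of them did so was not tested. Of 44 clusters, 7 stayed unnamed. Cluster 9 was led by Selp, Fbln2, Vwf and Wnt9b, cluster 21 by Mmp13, Mmp12, Cx3cr1 and Gpnmb, cluster 23 by Colec10 and Rgs5, cluster 24 by F13a1, Mpo and Elane, cluster 20 by pancreatic acinar genes such as Ctrb1 and Cpa1, cluster 35 by G6pc and Igfbp1, and cluster 37 by Igha, Jchain and Mpo. The Kupffer-like class joined clusters with different leading genes. Its cluster 0 (3405 cells) was led by Marco, Timd4 and Cd163. Its cluster 5 (2281 cells) was led by genes such as Pf4, Trem2 and Cd207, which also stood among the leading genes of cluster 21. Its cluster 11 (1047 cells) was led by Ccl24 and Rgs1, and its second marker score was that of LSEC. The treatment was not tested in these clusters apart. In barcodes below the cell filter the members summed to 51.6 to 144 CPM (counts scaled to the library total), against 704 to 1217 CPM in cells. Barcodes that failed can hold free RNA as well as shallow or damaged cells, and the part of each was not tested. Any pair of libraries shared at most 5 cell barcodes.

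Cells in which several members were found together were scarce and spread over many lineages. To compare cells of unequal depth, each cell was thinned to 1000 UMIs, and 34949 cells were deep enough. Of these, 61.4% had no member, and 1141 cells (3.26%) had at least 3 of the 38. The rule of 3 lies on a slope: 2434 cells had exactly 2 members and 423 had exactly 3, while 584 had 5 or more and 229 had 10 or more. Kupffer-like cells made up 339 of the 1141 cells, LSEC-like (liver sinusoidal endothelial) cells 203, cluster 9 106 and T-like cells 106.

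These cells also carried cell cycle genes outside the 38. Of the cells with 3 or more members, 77.5% had a UMI of at least 1 of the other mitosis genes, a list of 57 that includes Nuf2, Ndc80, Anln and Aspm, against 36.1% of cells with fewer. They held 4.81 UMIs of that list on average, against 0.495. The other replication genes, a list of 34 that includes Gins2, Fen1 and Uhrf1, gave 2.12 UMIs against 0.435. The share with another mitosis gene was 80.0%, 78.4% and 66.0% in CWHM-12 1 to 3 and 80.8%, 74.1% and 81.4% in DMSO 1 to 3, each above the 32.8% to 37.8% of the remaining cells of the 6 libraries. Before thinning, the cells with 3 or more members had a median of 5425 UMIs against 3286, and their median doublet score was 0.0460 against 0.0279. These medians pool classes of unequal depth. Within Kupffer-like cells the order of depth was reversed, at 5546 against 6654 UMIs. It was kept in LSEC-like (4391 against 3754), T-like (4308 against 2741) and B-like cells (2686 against 2426) and in cluster 9 (8133 against 5490). The part of depth and of undetected doublets in the number of cells with 3 or more members was not tested. B-like cells with 3 or more members differed in make-up: their 42 cells held 0.905 UMIs of the G2/M members on average, while the 339 Kupffer-like cells held 4.06 and the 106 cells of cluster 9 held 7.45.

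Conventional dendritic cells had the highest shares among classes with 20 cells or more in at least 5 libraries, and hepatocytes the lowest. Averaged over libraries with 20 cells or more, 3 or more members were found in 14.9% of cDC1-like cells (10.3% to 20.7% over 5 libraries), 11.3% of cDC2-like cells (0% to 21.7%), 8.72% of cluster 24, 7.85% of T-like cells (6.01% to 9.09%), 7.29% of NK/ILC1-like cells, 7.01% of cluster 9 (3.23% to 12.6%) and 5.83% of cluster 21. Kupffer-like cells averaged 5.54% (3.39% to 6.80%) and LSEC-like cells 2.03% (1.57% to 2.89%), and the ranges of these 2 classes did not overlap. This holds with cluster 9 left out of the LSEC-like class. The best marker score of cluster 9 was that of LSEC, and a rule added after seeing the clusters left it unnamed. With cluster 9 counted as LSEC, the ranges overlapped. CWHM-12 2 then had 92 of 3180 LSEC-like cells and 44 of 348 cluster 9 cells with 3 or more members. DMSO 1 had 14 of 846 and 28 of 237. In both libraries the joint share lay above 3.39%, the lowest Kupffer-like value, and in the other libraries it lay below. Cluster 20 averaged 3.635%, plasmacytoid dendritic (pDC)-like cells 1.98% (0% to 4.44%), B-like cells 1.94%, cholangiocyte-like cells 1.68%, mesothelial-like cells 1.615%, stellate-like cells 1.17%, vascular endothelial-like cells 1.03% and hepatocyte-like cells 0.417%. From cDC1-like cells down to cluster 21, neighbours in this order overlapped in their ranges over libraries, while cDC1-like cells lay above T-like cells and cluster 21 in every library. Classes with 20 cells in fewer than 5 libraries were not placed. Pooled over libraries, the share among them was 30.7% of 101 cells in cluster 37, 10.2% of 147 neutrophil-like cells and 7.75% of 413 cells in cluster 23. The hepatocyte-like share was found at a median depth of 1145 to 2212 UMIs per cell, against 1928 to 9299 in the Kupffer-like class. Whether these hepatocyte-like cells were resting was not tested. Without thinning, 29.1% to 57.6% of Kupffer-like cells and 1.17% to 3.02% of hepatocyte-like cells passed the rule of 3, and these values move with depth.

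**Figure D1:**
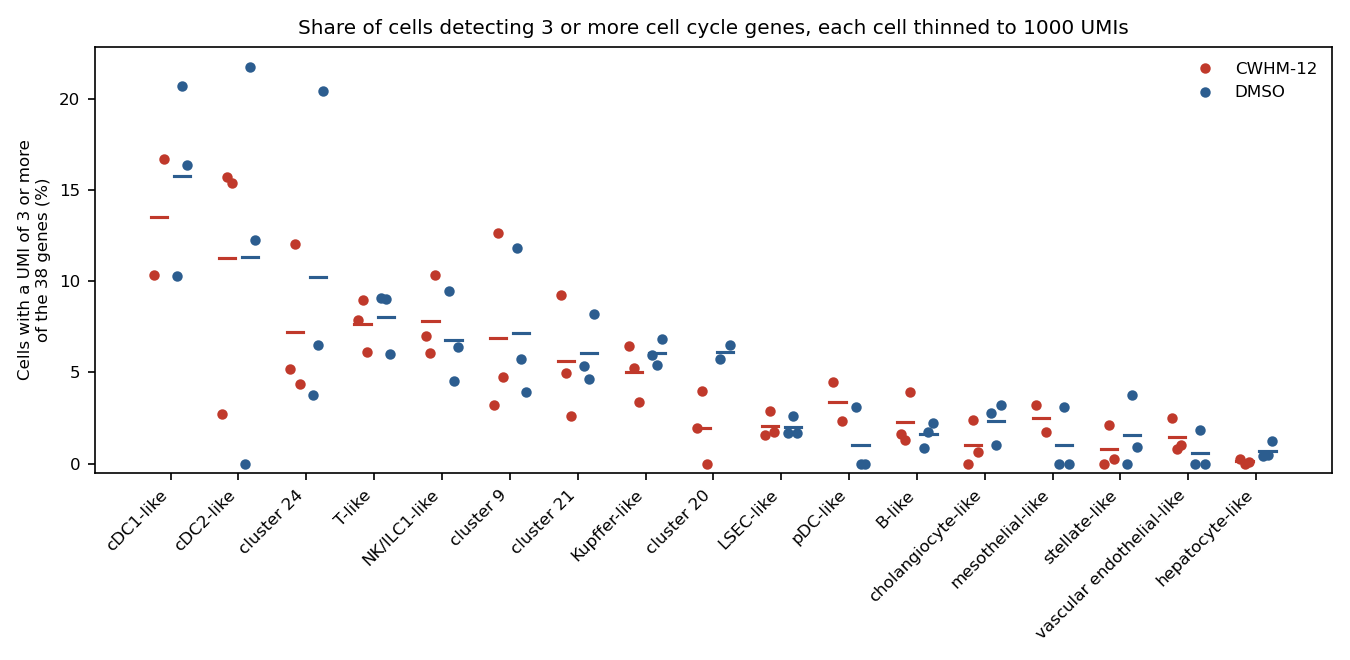
Percentage of cells with a UMI of 3 or more of the 38 genes after thinning to 1000 UMIs, by cell class (x axis) and library (points); CWHM-12 libraries are red and stand left of DMSO libraries in blue, and bars are means. The cDC1-like and cDC2-like classes average 14.9% and 11.3%, hepatocyte-like cells average 0.417%, and the treatment groups overlap in the Kupffer-like and LSEC-like classes.

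The class with the highest level differed between members. For each library, the counts of all cells of a class were added up and expressed as CPM of that class; more dividing cells and more RNA per dividing cell cannot be told apart in such sums. Among 17 classes and clusters with 5 or more libraries, 12 members had their highest mean in cDC2-like cells (Top2a, Birc5, Aurkb, Bub1, Kif20a and others), 8 in cluster 9 (Ccna2, Cdk1, Prc1, Ube2c and others), 7 in NK/ILC1-like cells (Mcm2, Mcm5, Mcm6, Pcna, Rrm1, Hmgb2 and Ccne1), 4 in cDC1-like cells and 4 in cluster 24. Only Mcm4, in T-like cells, Tk1, in Kupffer-like cells, and Cenpa, in vascular endothelial-like cells, peaked elsewhere. Top2a, the topoisomerase that untangles sister chromosomes, averaged 308 CPM in cDC2-like cells, 232 in cDC1-like cells, 141 in T-like cells, 53.4 in Kupffer-like cells, 15.02 in LSEC-like cells and 3.58 in hepatocyte-like cells. The spread between libraries was wide where cells were few: in cDC2-like cells Top2a was 188 ± 177 CPM in CWHM-12 and 428 ± 438 CPM in DMSO libraries (SD, n = 3 each).

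**Figure D2:**
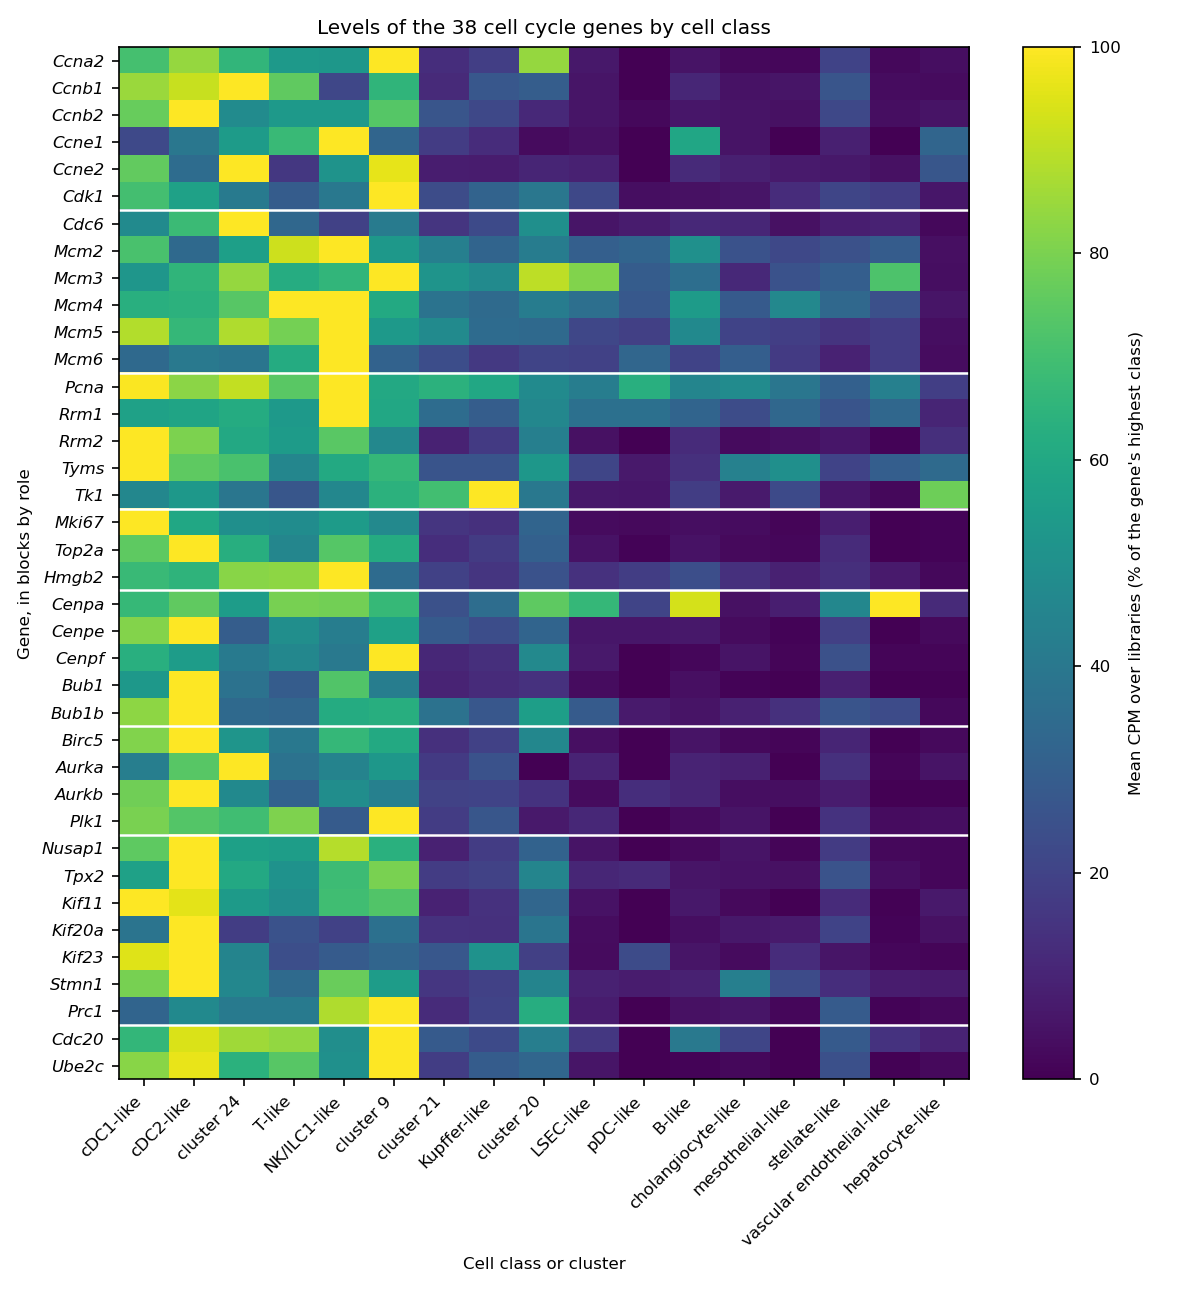
Mean CPM of each of the 38 genes (rows, in blocks by role) in 17 cell classes and clusters (columns, ordered by the share of cells with 3 or more members), as a percentage of the highest class of that gene. Most mitosis genes are bright only in the left columns, while Tk1 is bright in Kupffer-like and hepatocyte-like cells and Cenpa in B-like and vascular endothelial-like cells.

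Kupffer-like and LSEC-like cells, the largest classes of sinusoidal cells, differed in most members. The mean was higher in Kupffer-like cells for 31 of 38 members and lower for 7, Cenpa, Mcm3, Rrm1, Ccne2, Mcm6, Bub1b and Mcm4. The LSEC-like means leave out cluster 9, in which 8 members had their highest mean. The ratio of Kupffer-like to LSEC-like means was 4.82 for Mki67, a protein that coats mitotic chromosomes, 3.56 for Top2a and 5.14 for Ube2c. It was 18.2 for Kif23, a kinesin of the cytokinetic midzone, and 15.2 for Tk1, the cytosolic thymidine kinase. The licensing subunits had ratios of 0.593 for Mcm3, 0.860 for Mcm6, 0.946 for Mcm4, 1.06 for Mcm2 and 1.63 for Mcm5.

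Members differed in how far their UMIs lay inside cells with other members. For each member, the share of its UMIs was taken in cells that held at least 3 of the other 37. A mitosis gene has 22 companions of its own phase among these and a replication gene 12, so the measure favours mitosis genes by its make-up. This share was 91.4% for the checkpoint kinase Bub1, which rests on only 58 UMIs. It was 88.6% for cyclin A2 (Ccna2), 88.1% for Cenpf, 86.9% for Prc1, 85.8% for Nusap1, 85.6% for Top2a and 80.0% for Mki67. It was 12.1% for Mcm3, 13.3% for Pcna, 17.9% for Mcm2, 17.99% for Mcm4, 21.2% for Rrm1 and 25.4% for the chromatin protein Hmgb2. Most UMIs of these genes thus lay in cells with fewer than 3 other members. The 4 lowest mitosis genes were Cenpa, the histone variant of the centromere, at 15.4%, Bub1b, a checkpoint protein, at 30.7%, Kif23 at 43.1% and Cdk1 at 49.1%. Rrm2, the regulated subunit of ribonucleotide reductase, was the highest of the replication genes at 63.9%, followed by Cdc6 at 57.9% and Ccne2 at 50.9%, both above those 4 mitosis genes but resting on 76 and 59 UMIs.

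**Figure D3:**
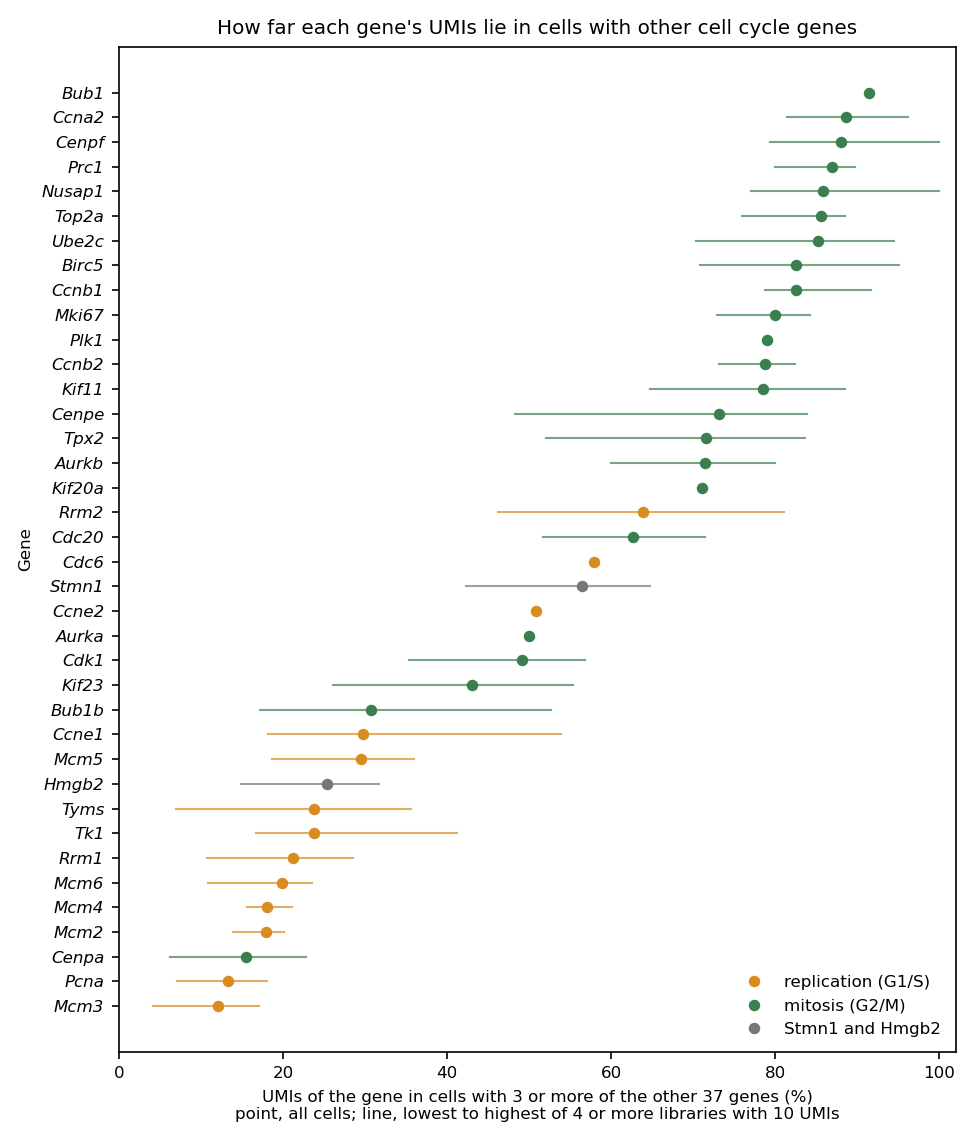
Percentage of each gene's UMIs (x axis, thinned cells) found in cells with 3 or more of the other 37 genes; points are all cells, lines run from the lowest to the highest library where 4 or more libraries held 10 UMIs, and colours give the phase. Green mitosis genes reach 91.4% (Bub1, on 58 UMIs), and orange replication genes lie mostly below 30%, with Cenpa at 15.4% among them.

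This share changed with the cell type. It was higher in Kupffer-like than in LSEC-like cells for 28 of the 31 members with a value in both, and lower for Tk1, Kif23 and Mki67. Cells with 3 or more members were themselves 5.39% of all thinned Kupffer-like and 2.17% of LSEC-like cells. They were 8.01% of T-like, 1.69% of B-like and 0.438% of hepatocyte-like cells. A class with more such cells can give each gene a higher share of UMIs in them, and this part was not tested. Tk1 stood at 74.4% in LSEC-like cells and 69.2% in T-like cells, but at 29.8% in Kupffer-like and 3.10% in hepatocyte-like cells. In the hepatocyte-like class Tk1 had 48.0, 55.4 and 43.8 CPM in CWHM-12 1 to 3, against 29.7, 15.9 and 57.8 CPM in DMSO 1 to 3. The groups overlapped, with DMSO 2 lowest and DMSO 3 highest, and the log2 fold change was 0.39 with a standard error (SE) of 0.36 (unadjusted p = 0.315, adjusted p = 0.999, edgeR). In the GENCODE vM21 annotation exons of Tk1 share 83 bases with Afmid, an enzyme gene on the other strand, and how the deposited counting used strand is not given in the sources used here. Kif23 had 36.0, 56.2 and 62.9 CPM in CWHM-12 1 to 3 and 36.6, 48.0 and 48.9 CPM in DMSO 1 to 3 in Kupffer-like cells, where 34.4% of its UMIs lay in cells with 3 other members. In LSEC-like cells that share was 57.1%, at a mean of 2.64 CPM. Cenpa followed the majority: 4.21% of its UMIs in LSEC-like and 1.51% in B-like cells lay in such cells, against 33.7% in Kupffer-like cells. Its mean was 95.7 CPM in vascular endothelial-like, 89.7 in B-like, 63.8 in LSEC-like and 34.1 in Kupffer-like cells. Exons of 11 members share bases with another annotated gene, in 8 cases a protein-coding one on the opposite strand (Tk1, Kif20a, Nusap1, Ube2c, Ccna2, Ccne2, Cdc20 and Prc1), and their levels carry that uncertainty. Kif23 and Cenpa are not among them.

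**Figure D4:**
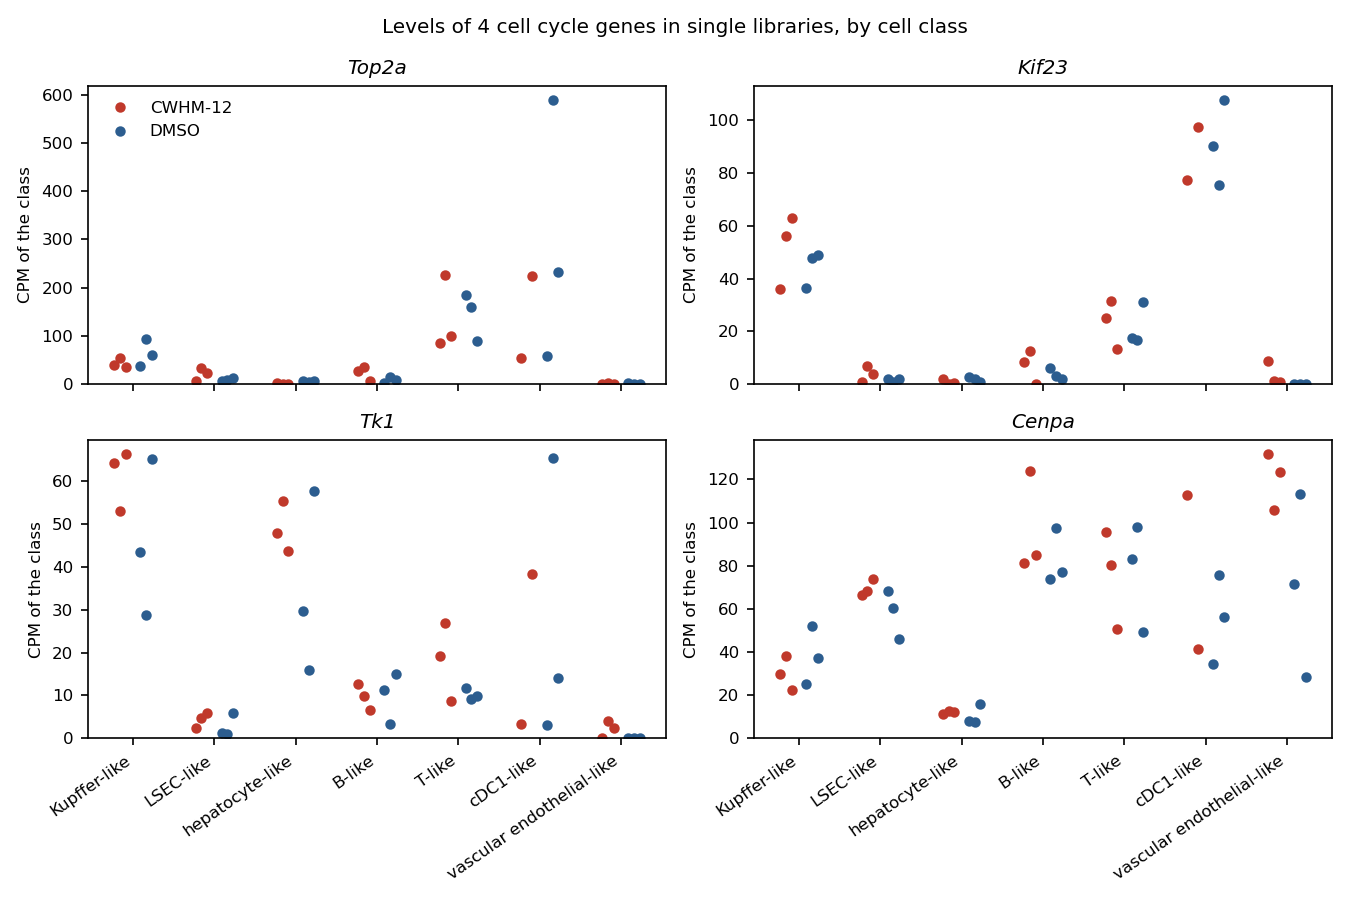
CPM of Top2a, Kif23, Tk1 and Cenpa (y axes) in 7 cell classes (x axis); each point is a library, CWHM-12 in red left of DMSO in blue. Top2a is low in hepatocyte-like and vascular endothelial-like cells, whereas Tk1 averages 41.8 CPM in hepatocyte-like and 53.5 CPM in Kupffer-like cells and Cenpa averages 95.7 CPM in vascular endothelial-like cells.

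CWHM-12 and DMSO livers did not differ in any member beyond the adjusted threshold. In 17 classes and clusters, each fitted alone with edgeR's quasi-likelihood test and a batch term over all its genes, 0 members passed a Benjamini-Hochberg adjusted p of 0.05. Of all 12351 genes tested in Kupffer-like cells 0% passed, as did 0% of 11348 in LSEC-like cells; 171 and 238 genes had an unadjusted p under 0.05. Among them was 1 member in each class, lower in Kupffer-like cells (as 0.818% of all genes) and higher in LSEC-like cells (as 0.687%). The adjusted threshold was passed by 1% of all genes in NK/ILC1-like cells, 0.138% in cDC2-like cells, 0.044% in cholangiocyte-like cells and 0.0157% in cluster 21, and by 0% in the other classes. DESeq2 called 0 members and 1 gene in each class. Each label names a mouse but does not say that the 6 mice are different, so a p-value here rests on library-to-library spread that could be technical.

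In Kupffer-like cells the G2/M members leaned lower under CWHM-12 without reaching the threshold. Of 37 members tested, 30 had a negative log2 fold change, against 47.8% of all genes, and the median was -0.27, against 0.01 over all genes. The median was -0.447 without CWHM-12 2, -0.413 without DMSO 1 and -0.11 without DMSO 2. Of the 23 mitosis genes 21 were negative, at a median of -0.53, and Bub1b and Kif23 were positive. Batch 2024.6 alone gave -0.465 and batch 2024.12 alone -0.299, each with 1 library in 1 of the groups. In batch 2024.6 the G2/M members summed to 232.8 CPM in CWHM-12 1, against 219.6 in DMSO 1 and 516.6 in DMSO 2. In batch 2024.12 they summed to 424.2 and 260.9 CPM in CWHM-12 2 and 3, against 407.5 in DMSO 3. The 12 G1/S genes tested were negative in 7 and positive in 5, with a median of -0.04. Members of a module share the same dividing cells, so these counts are not independent.

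Single genes show how much the libraries varied. Top2a had 38.6, 54.7 and 36.3 CPM in CWHM-12 1 to 3, against 37.1, 94.1 and 59.8 CPM in DMSO 1 to 3 (log2 fold change -0.57, SE 0.38, unadjusted p = 0.183, adjusted p = 0.999, edgeR). Mki67 had 22.7, 30.4 and 17.8 CPM in CWHM-12 libraries, against 18.2, 40.8 and 31.5 CPM in DMSO libraries (-0.38, SE 0.36, unadjusted p = 0.332, adjusted p = 0.999, edgeR). In both genes DMSO 2 was highest and DMSO 1 stood among the CWHM-12 values, so the groups overlapped. Stmn1, a microtubule-destabilising protein, had 54.6, 75.9 and 55.3 CPM in CWHM-12 libraries, against 49.0, 84.9 and 83.8 CPM in DMSO libraries. Hmgb2 had 106, 152 and 115 CPM, against 101, 149 and 170 CPM. Both overlapped, with log2 fold changes of -0.32 (SE 0.25) and -0.29 (SE 0.21). Pcna was level, at 195, 229 and 227 CPM in CWHM-12 libraries, against 218, 250 and 203 CPM in DMSO libraries. Mcm5 had 27.3, 27.2 and 25.7 CPM in CWHM-12 libraries, against 31.8, 29.0 and 30.2 CPM in DMSO libraries; the groups did not overlap, but the difference was -0.17 (SE 0.15, unadjusted p = 0.301, adjusted p = 0.999, edgeR). Such separation below DMSO held for 2 of 37 members, Mcm5 and Rrm1, against 5.64% of all genes, a share near the background. The smallest p was that of Nusap1, a spindle protein of low level, at 3.13, 8.89 and 5.50 CPM in CWHM-12 libraries, against 5.10, 11.6 and 13.4 CPM in DMSO libraries (-1.11, SE 0.40, unadjusted p = 0.0306, adjusted p = 0.999, edgeR). Among members of 10 CPM or more, Cenpe (a kinetochore motor), Prc1 and Birc5 (survivin, of the chromosomal passenger complex) had log2 fold changes of -0.72, -0.66 and -0.54 with overlapping groups. Their unadjusted p-values were 0.149, 0.209 and 0.228, and each adjusted p was 0.999 (edgeR).

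The share of Kupffer-like cells with 3 or more members gave no steady difference. It was 6.45%, 5.24% and 3.39% in CWHM-12 1 to 3, against 5.96%, 5.40% and 6.80% in DMSO 1 to 3. The means were 5.03% ± 1.54 in CWHM-12 and 6.05% ± 0.707 in DMSO libraries (SD, n = 3 each). The difference was 0.770 percentage points within batch 2024.6 and -2.49 points within batch 2024.12, where CWHM-12 3 was lowest and DMSO 3 highest.

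In LSEC-like cells the direction of the members depended on the processing and on single libraries. Of 29 members tested, 10 were negative and 19 positive, against 46.7% of all genes negative, at a median of 0.13; batch 2024.6 alone gave -0.20 and batch 2024.12 alone 0.23. The median was -0.385 without DMSO 3, -0.0581 without CWHM-12 2, 0.241 without CWHM-12 1 and 0.24 without DMSO 1. It was -0.463 with a stricter cell filter, -0.866 with doublets kept and -0.396 with clusters built with cell cycle genes. With a looser cell filter it was -0.224, and with classes from marker scores alone -0.237. These changes of filter, doublets and classes each reassigned cells, so the cells called LSEC-like also differed. With doublets kept, an unnamed cluster with LSEC as its best score and leading pancreatic acinar genes held 1442 cells, against 502 in the main run. Top2a had 6.25, 32.4 and 24.04 CPM in CWHM-12 1 to 3, against 5.94, 8.79 and 12.7 CPM in DMSO 1 to 3 (log2 fold change 0.56, SE 0.39, unadjusted p = 0.199, adjusted p = 0.996, edgeR). Mki67 had 1.29, 10.96 and 6.46 CPM in CWHM-12 libraries, against 3.96, 3.38 and 7.40 CPM in DMSO libraries (log2 fold change -0.37, SE 0.49). CWHM-12 2 was highest and CWHM-12 1 low in both, so the groups overlapped. Rrm2 had the smallest p, with 2.80, 6.72 and 4.89 CPM in CWHM-12 libraries, against 1.26, 0.338 and 2.996 CPM in DMSO libraries (1.198, SE 0.45, unadjusted p = 0.0352, adjusted p = 0.996, edgeR). The CWHM-12 libraries lay above all DMSO libraries in 2 of 29 members, against 5.25% of all genes: Mcm3, at 59.7, 69.3 and 67.1 CPM against 56.7, 48.4 and 59.2 CPM, and Bub1b. Cenpa had 66.2, 68.4 and 73.6 CPM in CWHM-12 libraries, against 68.1, 60.5 and 45.8 CPM in DMSO libraries (0.34, SE 0.19), and Hmgb2, Mcm5, Pcna and Stmn1 had log2 fold changes of -0.24, -0.23, -0.08 and 0.02, all with overlapping groups. With cluster 9 counted as LSEC, an alternative chosen after seeing the data, all 38 members were tested and the median was -0.56, with Top2a at -0.82. The share of LSEC-like cells with 3 or more members was 1.57%, 2.89% and 1.75% in CWHM-12 1 to 3, against 1.65%, 2.60% and 1.69% in DMSO 1 to 3, and the groups overlapped.

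**Figure D5:**
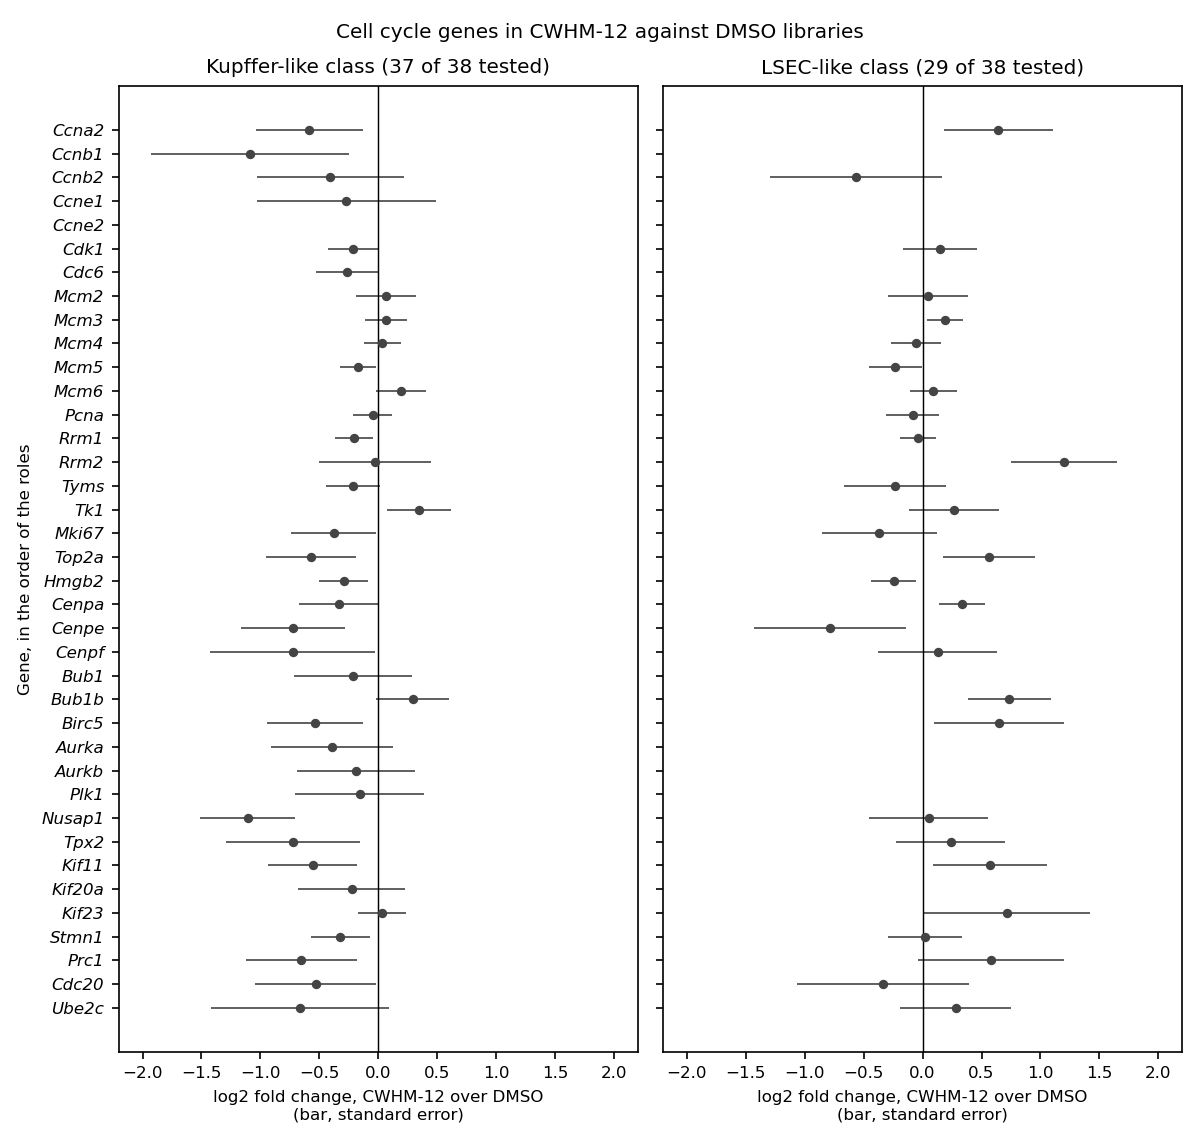
Log2 fold change of each gene, CWHM-12 over DMSO (x axis; bars are standard errors), in Kupffer-like (left) and LSEC-like cells (right); genes without a point were too low to test. In Kupffer-like cells 30 of 37 points lie below 0 and in LSEC-like cells 10 of 29, and no gene passes the adjusted threshold.

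The difference between these 2 classes was tested itself, in a model with the library as a block. The treatment effect in Kupffer-like minus that in LSEC-like cells was negative for 31 of 38 members, with a median of -0.34 (-0.01 over all genes). The median was -0.626 without CWHM-12 1, -0.527 without DMSO 1 and -0.0575 without DMSO 3. No member passed the adjusted threshold (smallest adjusted p = 0.981, edgeR), and 0% of all genes did. At an unadjusted p under 0.05 stood 6 of 38 members, Rrm2, Top2a, Ccne1, Ccna2, Kif11 and Tpx2, against 3.91% of all genes. Of the 38 members 9 were too low to test in LSEC-like cells alone. Ccne1 averaged only 1.55 CPM in Kupffer-like and 0.524 CPM in LSEC-like cells. For Top2a the difference was -1.16 (SE 0.27); it was -0.36 without DMSO 3 and 0.32 with cluster 9 counted as LSEC, and for Rrm2 it was -1.40, -1.23 and -0.04. With cluster 9 the median over members was 0.22. Without the filter on low counts Top2a alone was called among the members, at -1.2 and an adjusted p of 0.00102 (edgeR), together with 36 other genes.

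Cluster 9 itself held many cells with several members, and their share swung between libraries. It was 3.23%, 12.6% and 4.76% in CWHM-12 1 to 3, against 11.8%, 5.73% and 3.90% in DMSO 1 to 3. The difference was -5.55 points within batch 2024.6 and 4.80 within batch 2024.12, and the median log2 fold change over 35 members tested was -0.03, with -0.91 in batch 2024.6 and 0.68 in batch 2024.12; 19 were negative, against 48.6% of all genes.

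Other cells gave fewer members to test. In T-like cells the share with 3 or more members was 7.65% ± 1.44 in CWHM-12 and 8.05% ± 1.76 in DMSO libraries (SD, n = 3 each), and 6 of 26 members were negative, against 46.3% of all genes, with a median of 0.11, which was 0.55 without CWHM-12 1, -0.22 without DMSO 3 and -0.117 with clusters built with cell cycle genes. Stmn1 had 115, 158 and 141 CPM in CWHM-12 1 to 3, against 153, 124 and 38.1 CPM in DMSO 1 to 3, with DMSO 3 far below the rest; Ccna2, Ccnb2, Rrm2 and Cdk1 had log2 fold changes of 0.41 to 0.78 with overlapping groups. Their unadjusted p-values were 0.220 to 0.271, and Stmn1 had 0.155 (edgeR, no adjusted p under 0.9997). In B-like cells 1 of 12 members tested was negative, against 48.9% of all genes, and the median was 0.23. It was 0.456 without CWHM-12 3, 0.551 without DMSO 2, 0.0967 without DMSO 3, 1.18 without the filter on low counts and -0.0687 with clusters built with cell cycle genes. Top2a had 26.6, 34.7 and 6.52 CPM in CWHM-12 libraries, against 3.15, 14.6 and 8.27 CPM in DMSO libraries (1.72, SE 0.60, unadjusted p = 0.0160, adjusted p = 1, edgeR), and the groups overlapped because CWHM-12 3 was low. Pcna, Mcm5, Stmn1 and Mcm2 had log2 fold changes of 0.26 to 0.38 in that class. The share was 2.26% ± 1.43 in CWHM-12 and 1.62% ± 0.699 in DMSO libraries (SD, n = 3 each).

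In stellate-like cells 1 library of each group had the highest mitosis levels. The 23 G2/M members summed to 64.2, 398 and 59.7 CPM in CWHM-12 1 to 3, against 76.4, 853 and 164 CPM in DMSO 1 to 3. Ube2c had 0, 16.6 and 0 CPM in CWHM-12 1 to 3, against 0.546, 67.6 and 8.44 CPM in DMSO 1 to 3, and Tpx2, which activates the spindle kinase Aurka, had 0.996, 25.3 and 1.97 CPM, against 6.01, 54.8 and 12.8 CPM. CWHM-12 2 and DMSO 2 were high in both genes. The share with 3 or more members was 0%, 2.09% and 0.227% in CWHM-12 libraries, against 0%, 3.77% and 0.909% in DMSO libraries; 0 of 184 cells in CWHM-12 1 allows a share of up to 1.63%. Of 22 members tested 16 were negative, against 49.8% of all genes; the median was -0.65, at -1.88 and -0.01 within the batches, and was -2.7 without DMSO 3, 0.323 without DMSO 2, 0.516 without CWHM-12 1 and 0.0387 with classes from marker scores alone. Mcm6, Hmgb2 and Mcm2 had log2 fold changes of 0.60, -0.55 and 0.37; the unadjusted p-values of these and of Tpx2 and Ube2c were 0.118 to 0.468, with an adjusted p of 1 each (edgeR).

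Hepatocyte-like cells had the lowest share, and its difference between the groups depended on thinning. After thinning it was 0.248%, 0% and 0.105% in CWHM-12 1 to 3, against 0.440%, 0.458% and 1.25% in DMSO 1 to 3, so the groups did not overlap. Without thinning it was 1.47%, 2.66% and 2.42% in CWHM-12 libraries, against 1.17%, 1.71% and 3.02% in DMSO libraries, and the groups overlapped. The thinned difference was -0.598 percentage points, and -0.331 without DMSO 3. The count behind this was 30 cells of 6856, with 17 of them in DMSO 3, and 0 of 232 cells in CWHM-12 2 allows a share of up to 1.29%. The Wilson intervals (95%), which cover counting error only, were 0.106% to 0.579% in CWHM-12 1 and 0.171% to 1.13% in DMSO 1. Of 12 members tested 9 were negative, against 49.4% of all genes, with a median of -0.44, which was -0.01 without DMSO 3 and -0.87 without DMSO 2. CWHM-12 libraries lay below all DMSO libraries in 2 members, Top2a and Mcm4, against 3.13% of all genes. Stmn1 had 20.1, 22.2 and 16.9 CPM in CWHM-12 libraries, against 24.3, 18.8 and 46.7 CPM in DMSO libraries (-0.71, SE 0.35, unadjusted p = 0.0708, adjusted p = 0.999, edgeR), with DMSO 3 alone high. Hmgb2, Tyms and Cenpa had log2 fold changes of -0.40, -0.18 and 0.07.

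Among the smaller groups, Mki67 and Top2a in cluster 21 were singled out after their values were seen. Mki67 had 17.3, 18.01 and 5.78 CPM in CWHM-12 1 to 3, against 26.5, 52.7 and 58.4 CPM in DMSO 1 to 3 (-1.62, SE 0.46, unadjusted p = 0.00458, adjusted p = 0.999, edgeR). Top2a had 1.73, 26.0 and 17.3 CPM, against 72.2, 82.8 and 39.1 CPM (-2.11, SE 0.68, unadjusted p = 0.0102, adjusted p = 0.999, edgeR). All 3 CWHM-12 libraries lay below all DMSO libraries in both genes, as in 6.22% of all genes of the cluster, and the 5 mitosis genes tested there were all negative. At an unadjusted p under 0.05 and lower stood 4 of 15 members, against 1.72% of all genes, and 11 of 15 were negative, against 48.9%; fits without single libraries were not run for this cluster. The share of cells with 3 or more members nevertheless overlapped, at 9.23%, 4.95% and 2.63% in CWHM-12 libraries, against 5.36%, 4.62% and 8.19% in DMSO libraries, from 38 to 171 cells each. In cDC2-like cells 20 of 21 members were negative, against 48.5% of all genes, with a median of -0.96, and in cluster 24 17 of 17 were, against 48.5%, with a median of -0.60. CWHM-12 1 and DMSO 1 stood apart in cDC2-like cells, with 1 of 37 and 0 of 52 cells at 3 or more members, where the mean share was 11.27% ± 7.42 in CWHM-12 and 11.33% ± 10.9 in DMSO libraries (SD, n = 3 each). The medians of batch 2024.6 and batch 2024.12 were -1.14 and -0.43 in cDC2-like cells and 0.17 and -1.79 in cluster 24. Of the remaining classes, negative members were 23 of 26 in cDC1-like cells (median -0.50; 48.4% of all genes), 6 of 8 in NK/ILC1-like cells (-0.51; 49.6%), 5 of 5 in cluster 20 (-1.26; 51.4%) and 6 of 9 in cholangiocyte-like cells (-0.09; 48.7%). They were 2 of 6 in mesothelial-like cells (0.58; 46.4%) and 0 of 6 in vascular endothelial-like cells (0.44; 47.5%), and in pDC-like cells 2 members were tested, 1 in each direction.

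Genes that govern the cycle from outside the 38 did not pass the threshold either. In Kupffer-like cells 0 of 55 other mitosis genes tested were called, 47 were negative and 8 positive, with a median of -0.41; the 2 of smallest p were Neil3, a DNA glycosylase, (-1.16) and Pclaf, which binds Pcna, (-0.50). Of 33 other replication genes 17 were negative with a median of -0.01, led by Clspn (-0.71) and Gmnn (-0.30), and of 19 chromatin genes 13 were negative, led by the linker histone H1f2 (-0.49) and Hmgn2 (-0.61). The 8 G1 cyclins and kinases were negative in 2 and positive in 6, with Cdk6 at -0.11 and Ccnd1 at 0.16, and the 12 inhibitors tested were negative in 5, with Cdkn2c at -0.66. Of 18 E2F and MuvB regulators 9 were negative and 9 positive. Tfdp2 (-0.48) and Lin9 (-0.40) lay below DMSO without overlap, as 5.64% of all genes did. E2f1 (0.51, SE 0.34) lay above DMSO without overlap, as 5.66% of all genes did. In LSEC-like cells 11 of 28 other mitosis genes (Pclaf 0.89, Spc25 0.75), 13 of 28 replication genes (Orc6 -0.54, Cdc7 0.80), 12 of 17 chromatin genes (H2bc4 0.50, Hmgn2 -0.67), 3 of 8 G1 genes (Cdk6 -0.61, Ccnd1 0.31), 6 of 11 inhibitors and 9 of 14 regulators (Lin9 -0.63, E2f5 -0.31) were negative, and 0 of each were called.

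Cdkn1a, which encodes the CDK inhibitor p21, lay above DMSO in all CWHM-12 libraries of the LSEC-like and Kupffer-like classes, and the groups overlapped in stellate-like, hepatocyte-like, T-like and B-like cells. In LSEC-like cells it had 37.5, 55.3 and 53.6 CPM in CWHM-12 1 to 3, against 36.9, 22.99 and 13.04 CPM in DMSO 1 to 3 (log2 fold change 1.17, SE 0.45, unadjusted p = 0.0372, adjusted p = 0.996, edgeR). The difference was 0.36 within batch 2024.6 and 2.04 within batch 2024.12. In Kupffer-like cells it had 17.9, 26.3 and 17.6 CPM, against 14.5, 12.8 and 17.2 CPM (0.37, SE 0.22, unadjusted p = 0.143, adjusted p = 0.999, edgeR), and CWHM-12 3 and DMSO 3 were close. In stellate-like cells it had 6.97, 33.3 and 15.7 CPM, against 14.8, 34.5 and 4.08 CPM in DMSO libraries, and in hepatocyte-like cells 20.5, 71.2 and 9.43 CPM, against 39.1, 32.8 and 18.04 CPM. Btg1, an antiproliferative gene, was the second inhibitor by p in LSEC-like cells at -0.39. Separation above DMSO was found in 5.25% of all genes in LSEC-like and 5.66% in Kupffer-like cells.

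Over all classes together, the share of cells with 3 or more members did not separate the groups. It was 2.56%, 4.64% and 1.83% in CWHM-12 1 to 3, against 3.38%, 3.83% and 3.502% in DMSO 1 to 3. Leaving out hepatocyte-like cells, whose number the preparation set in part, it was 4.08%, 4.78% and 2.39%, against 4.07%, 4.39% and 4.14%. CWHM-12 2 was highest and CWHM-12 3 lowest in both counts.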

How the data were processed

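Whole-number UMI counts per gene and cell were deposited by the authors for 6 libraries (10000 barcodes each; 28220477 to 48100436 UMIs); reads were aligned to GRCm39, per the submitters' processing notes, and neither the tool nor its strand setting is given there. Cells with at least 300 genes, 500 UMIs and at most 30% mitochondrial UMIs were kept (38697), and 743 with a Scrublet score of 0.25 or more were removed; the automatic threshold marked 0.0495% to 1.14%. Cells were clustered (scanpy 1.11.5 functions, 2000 variable genes, 40 components, Leiden resolution 1.5) without 190 cell cycle genes. A cluster was named when at least 3 of its markers were detected in 20% of its cells; a rule that leaves a cluster unnamed when its leading genes belong to another type was added after seeing the clusters. The plasma cell marker Mzb1 is in no gene table used.

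Counts summed per class and library (20 cells or more) were tested with edgeR 4.0.16 (quasi-likelihood, TMM, filterByExpr, batch term), tested on simulated data, with Benjamini-Hochberg adjustment over all genes of the class; levels within batches used log2 CPM with a prior count of 2. The members and lists were chosen with earlier results of these data known. Alternatives were DESeq2 1.42.0, other filters, thinning depths, classes, and leaving out each library. Library values were given for Mki67, Top2a, Mcm5, Pcna, Hmgb2 and Stmn1 in 2 classes, for the 5 members of smallest p with 10 CPM or more in 6 classes, and 2 genes of smallest p were named per other list. E2f1 in Kupffer-like cells was named in addition, after its values were seen. Intervals and limits for a count of 0 (3 counts) cover counting error only.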

Additional observations from a re-analysis of the deposited data

How the results depend on the processing

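Over 24 alternative settings no single member was called in the 6 main classes, and 16 of 103 share values and 14 of 106 medians moved. The median log2 fold change in LSEC-like cells was -0.463 with a stricter cell filter, -0.866 with doublets kept, -0.396 with clusters built with cell cycle genes and -0.559 with cluster 9, an alternative chosen after seeing the data; the cause was not tested. Without the filter on low counts the median was 1.18 in B-like and -0.974 in hepatocyte-like cells, and 1 member was called in the difference between Kupffer-like and LSEC-like cells, whose median was 0.22 with cluster 9. Leaving out 1 library gave medians of -0.447 to -0.11 in Kupffer-like, -0.385 to 0.241 in LSEC-like, -2.7 to 0.516 in stellate-like, -0.223 to 0.553 in T-like, 0.0967 to 0.551 in B-like and -0.868 to -0.0112 in hepatocyte-like cells, and -0.626 to -0.0575 for the difference.

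The difference in the share of cells with 3 members, in percentage points, was without thinning 4.99 in Kupffer-like, -4.47 in LSEC-like, -6.44 in stellate-like, -10.2 in T-like and 0.215 in hepatocyte-like cells. Thinned to 2000 UMIs it was 0.755 in LSEC-like, 6.41 in T-like, 6.29 in B-like and -1.44 in hepatocyte-like cells, and thinned to 500 UMIs -0.214 in hepatocyte-like cells. With 2 or more members it was -0.689 in LSEC-like and -0.895 in B-like cells. In LSEC-like cells it was -0.635 with the stricter filter, -1.07 with doublets kept, -1.39 with clusters built with cell cycle genes and -0.673 with cluster 9.

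With the replicate number as a block the median was -0.182 in Kupffer-like and 0.275 in LSEC-like cells, and 0 members were called. Same-numbered libraries correlated at 0.302, 0.0419 and 0.0285 in Kupffer-like and 0.111, -0.0597 and -0.0184 in LSEC-like cells, and not every library correlated best with its own number, so the numbers were not taken as pairs.

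Of 489 values of single members 42 changed sign, none of them called. In LSEC-like cells Stmn1 was -0.0007 with DESeq2, -0.391 with the looser and -0.505 with the stricter filter, -0.866 with doublets kept, -0.478 with clusters built with cell cycle genes, -0.305 with classes from marker scores and -0.541 with cluster 9. Top2a was there -0.366, -0.828, -1.35, -0.431, -0.33 and -0.819 under the last 6 of these. Mki67 was 0.366 and Mcm5 0.0015 without the batch term, and Mki67 0.0601 with the block. With clusters built with cell cycle genes Stmn1 was -0.0121 in B-like cells, and Ccna2, Ccnb2 and Cdk1 were -0.123, -0.111 and -0.0348 in T-like cells. Leaving out 1 library gave ranges across 0 for Stmn1 in B-like (-0.0905 to 0.71) and Pcna in Kupffer-like cells (-0.264 to 0.17), for Mki67 (-1.51 to 0.234), Pcna (-0.398 to 0.222), Stmn1 (-0.599 to 0.548) and Top2a (-0.211 to 1.15) in LSEC-like cells, for Ccna2 (-0.015 to 0.943), Rrm2 (-0.592 to 3.28) and Stmn1 (-0.34 to 1.97) in T-like cells, for Cenpa (-0.366 to 0.572), Hmgb2 (-0.874 to 0.051) and Tk1 (-0.244 to 1.07) in hepatocyte-like cells, and for Hmgb2 (-1.3 to 0.0886), Mcm2 (-0.402 to 0.924), Tpx2 (-4.79 to 0.164) and Ube2c (-8.92 to 0.0883) in stellate-like cells.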
